A study of Homo sapiens with 6 samples.

Results

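The genes described here are 47 genes of the lysosome and of autophagy, taken by name from a table of read counts for 58051 human genes. All 47 were found in the table by symbol, and all 47 passed the filter on low counts, which 17561 genes passed in all. They comprise 11 cathepsins, 11 glycosidases, 5 sulfatases, 6 hydrolases of lipids and peptides or their activators, 6 membrane and cholesterol-handling proteins, 2 transcription factors and 6 autophagy genes. RNA came from U2OS cells, an established human osteosarcoma line. The siSCR group (3 libraries) received scrambled siRNA and the siSURF2 group (3 libraries) received siRNA that targets SURF2. All cells had 10% serum and 2 transfections at a 49 h interval, were taken at 96 h, and gave 2 µg of total RNA for polyA libraries. The siRNA sequences were not given in the sources used here, and a single cell line was used. The title of the series places SURF2, a nucleolar protein, in the nucleolar stress response as an antagonist of MDM2, and the comparison asks which mRNAs differed when SURF2 was lowered.

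Lysosomes are acidic organelles in which proteases, glycosidases, sulfatases and lipases break down material delivered by endocytosis and by autophagy, the process that wraps cytoplasm in membrane. Many of these genes share a short promoter element, the CLEAR element, bound by transcription factors of the MiT/TFE family (TFEB, TFE3, MITF and TFEC). These factors are held in the cytoplasm by the kinase complex mTORC1 when nutrients are plentiful and enter the nucleus when it is inactive. Their mRNA level is therefore only part of their regulation, and protein location was not measured here.

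SURF2 mRNA (ENSG00000148291) was 9.93-fold lower in siSURF2, at 36.2, 35.8 and 32.3 CPM (counts scaled to a common library size by TMM) in siSCR and 3.74, 3.56 and 3.20 CPM in siSURF2. Values by library are in the order of replicates 1, 2 and 3. Counts assigned to genes ranged from 17123333 to 19688089 per library. Whether the 3 replicates of a group came from separate cultures is not stated in the labels. The p-values therefore reflect only how far these libraries differ from each other, which can be technical. The library of siSURF2 replicate 2 stood apart from its group: mitochondrially encoded genes held 2.73% of its counts against 4.70% and 4.74% in replicates 1 and 3, and 2.91% to 3.50% in siSCR. In such bulk RNA, fewer cells of a type and less RNA per cell cannot be told apart. Of 13 osteoblast and mesenchymal markers, 5 were below 1 CPM in every library, among them 2 (IBSP and TWIST1) that had no counts. RUNX2, the transcription factor that defines osteoblasts, was detected at 22.8 ± 1.6 CPM in siSCR and 23.1 ± 1.88 CPM in siSURF2 (mean ± SD, n = 3 each). COL1A1, the collagen of bone, was detected at 167 ± 1.66 CPM in siSCR and 226 ± 25.4 CPM in siSURF2. ALPL, the alkaline phosphatase of osteoblasts, fell from 3.15 ± 0.132 to 0.742 ± 0.148 CPM (adjusted p = 8.3e-08), and SPP1, osteopontin, rose from 6.51 ± 1.21 to 20.6 ± 5.01 CPM (adjusted p = 1.9e-05). The summed level of that list was 3159 to 3211 CPM in siSCR and 3502 to 3845 CPM in siSURF2, and 4 of its 8 tested genes rose and 1 fell. Macrophages and osteoclasts are rich in lysosomes. Of 14 markers of these cells, 12 were below 1 CPM in every library, among them TYROBP, LYZ, FCGR3A and DCSTAMP, which had no counts. The summed level was 8.93 to 9.24 CPM in siSCR and 8.16 to 8.47 CPM in siSURF2. Of the 4 tested, 0 rose and 1 fell, with log2 fold changes from -1.28 to 0.17. Of 7 epithelial markers, 2 of 5 tested rose and 3 fell, with a summed level of 1481 to 1608 CPM in siSCR and 1036 to 1113 CPM in siSURF2. The part of these marker changes in the lysosomal results was not tested.

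Most lysosomal hydrolase mRNAs rose with siSURF2, while the autophagy genes went both ways. Of the 47 members, 30 rose, 4 fell and 13 missed the threshold (quasi-likelihood test of edgeR, adjusted p under 0.05 with p-values adjusted by Benjamini-Hochberg over all genes tested). Over all 17561 genes tested, 25.8% were called higher and 26.2% lower, or 52.0% in either direction, so a single call is common in this comparison. Of the members, 63.8% were called higher and 8.5% lower. The median level in siSCR was 60.1 CPM over the members and 15.9 CPM over all genes tested. Shares of members and of all genes are therefore not matched for level, and the part of level in them was not tested. Sizes given as rose by or fell by are log2 fold changes ± SE, and other folds are ratios of mean CPM. The median log2 fold change was 0.35 over the members and 0.004 over all genes tested. Most of the changes were modest: 26 of the 30 higher members rose by at least 1.2-fold, 6 by at least 1.5-fold and 1, FUCA1, by at least 2-fold. Among all 4535 genes called higher, 42.6% reached 1.5-fold and 18.1% reached 2-fold.

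All 3 siSURF2 libraries lay above all 3 siSCR libraries for 33 members and below them for 4, against 28.6% of all genes tested in each direction and 57.3% in either. Without siSURF2 replicate 2, 28 members were called higher and 4 lower. With library sizes set by the ERCC spike-in totals, whose share of a library ran from 1.12% to 1.72% and differed within each group, 3 members (FUCA1, GALNS and LIPA) were called higher and none lower, as were 802 and 825 of all genes. The direction of the 34 called members was the same under all of the 17 alternatives tried in which they were tested.

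**Figure D1:**
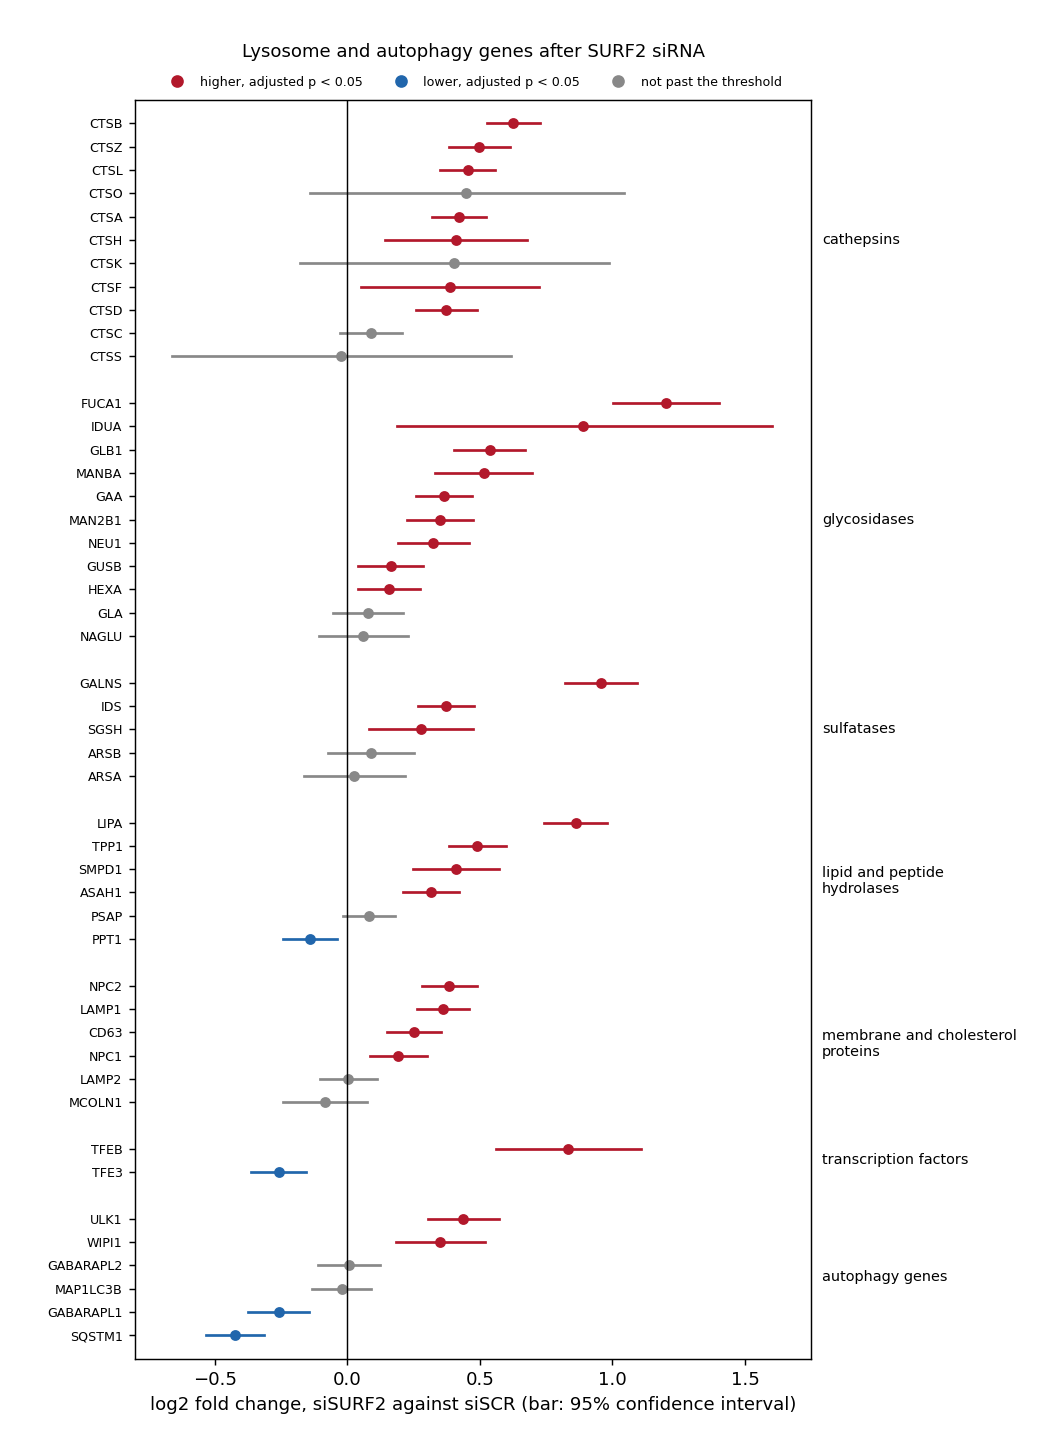
Log2 fold change of siSURF2 against siSCR (x axis) for each of the 47 members (y axis), grouped by role, as points with bars for the 95% confidence interval; red and blue mark members past the adjusted p threshold of 0.05. Of the 33 hydrolases, 23 are red and 1, PPT1, is blue, whereas the 6 autophagy genes hold 2 of each colour.

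The CLEAR element contains the E-box CACGTG, and 2 longer forms were searched as well: TCACGTGA, and the same letters with a G before and a C after them, 10 bases in all. Each of the 3 reads the same on both strands, and each longer one contains the shorter ones. RefSeq promoter windows (GRCh38.p14, 250 bases before to 50 after the start of the gene) were held for 35 of the 47 members. Of these, 9 contained CACGTG (25.7%), 5 contained TCACGTGA (14.3%) and 3 contained the 10-base form (8.57%). Over all 27305 windows the shares were 7.43%, 1.04% and 0.381%, and over the 11910 windows of genes tested 9.80%, 1.81% and 0.730%. Among genes tested, CACGTG was in 9.78% of the windows of genes called higher, 10.2% of those called lower and 9.56% of those not called. The letters alone thus occurred at like shares in genes that moved either way and in those that did not. The windows with either longer form are those of GAA, GALNS, MCOLN1, LAMP1 and CTSA, and their sites are printed below. Only 250 bases before to 50 after the start were searched, so the window limits how far from the start a site can lie. Capitals mark the motif, positions are those of its first base counted from the RefSeq start site of the window, where the base before it is -1, and each sequence is 5′ to 3′ on the strand of the gene. The gene coordinates given with the members are those of GENCODE release 29, whose gene starts can differ from the RefSeq start, as for GAA and GALNS.
GAA, position -78, chr17:80101493-80101522, plus strand: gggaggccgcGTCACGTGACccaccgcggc
GAA, position -33, chr17:80101538-80101567, plus strand: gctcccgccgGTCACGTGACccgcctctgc
GALNS, position -176, chr16:88857104-88857133, minus strand: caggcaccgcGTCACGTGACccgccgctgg
MCOLN1, position -16, chr19:7522598-7522627, plus strand: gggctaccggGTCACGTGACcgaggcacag
LAMP1, position -29, chr13:113297200-113297227, plus strand: acccgcgggaTCACGTGAcgcccgggcg
LAMP1, position -2, chr13:113297227-113297254, plus strand: gcggcgcagcTCACGTGAcaagcgctgc
CTSA, position -26, chr20:45891299-45891326, plus strand: gcgccggagtTCACGTGActcgtacaca

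Of these 5 genes, 4 (GAA, GALNS, LAMP1 and CTSA) rose, and MCOLN1 did not pass the threshold. CD63, CTSD, NEU1 and CTSF, whose windows held CACGTG without the longer forms, rose as well. None of the 4 members that fell (SQSTM1, TFE3, GABARAPL1 and PPT1) had CACGTG in its window, where 10.2% of the windows of all genes called lower held it. These 4 windows are too few to compare with that share. Of the 26 members with a window but without CACGTG, 17 were called higher. A match is a description of the letters and not evidence of binding.

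Cathepsins are the proteases of the lysosome, most of them cysteine proteases. Of the 11 measured, 7 rose, none fell and 4 were not called, and the median log2 fold change was 0.41. CTSB (ENSG00000164733, chromosome 8, 11842524 to 11869448), a cysteine protease with both endo- and exopeptidase activity, was at 270.0, 272 and 285 CPM in the siSCR libraries and 409.8, 435 and 431 CPM in the siSURF2 libraries. The lowest siSURF2 library lay well above the highest siSCR library, and the log2 fold change was 0.63 ± 0.05 (SE, adjusted p = 1.0e-11), a 1.54-fold higher mean. CTSL (ENSG00000135047, chromosome 9, 87725519 to 87731393), a cysteine endopeptidase, was at 85.6, 89.6 and 90.2 CPM in the siSCR libraries and 120.3, 123 and 120.4 CPM in the siSURF2 libraries. The groups did not overlap and the log2 fold change was 0.45 ± 0.05 (adjusted p = 1.8e-08). CTSZ (ENSG00000101160, chromosome 20, 58995185 to 59007247), a carboxypeptidase, was at 99.03, 90.1 and 91.3 CPM in the siSCR libraries and 135, 138 and 123 CPM in the siSURF2 libraries. It rose by 0.50 ± 0.06 (adjusted p = 1.8e-08), although siSURF2 replicate 3 was lower than the other 2 of its group.

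CTSA, a serine carboxypeptidase that protects GLB1 and NEU1 from degradation, rose from 168 ± 8.4 to 225 ± 2.3 CPM (1.34-fold), and CTSD, the main aspartic protease, from 63.3 ± 3.18 to 82.01 ± 1.06 CPM (1.29-fold). In CTSD, 52.7% of exon bases are shared with another annotated gene on the same strand, a transcript that reads through it, so reads can have been dropped as ambiguous. CTSH, an aminopeptidase, rose from 5.89 ± 0.531 to 7.84 ± 0.495 CPM (adjusted p = 0.010), a call lost without siSCR replicate 1 (adjusted p = 0.056). CTSF was at 3.15, 4.33 and 4.77 CPM in the siSCR libraries and 5.17, 5.73 and 5.25 CPM in the siSURF2 libraries and rose by 0.39 ± 0.16 with an adjusted p of 0.048, close to the threshold. That call was lost under 8 alternatives besides the spike-in scaling, including all of those that left out a library except siSCR replicate 3, and its adjusted p ranged from 0.025 to 0.28 over the alternatives other than spike-in scaling.

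CTSC, a dipeptidyl peptidase that activates serine proteases of immune cells, did not pass the threshold (log2 fold change 0.09, 95% confidence interval -0.03 to 0.21). CTSK, the collagen-degrading cathepsin of osteoclasts, CTSS, the cathepsin of antigen-presenting cells, and CTSO were near 1 CPM in every library. Their intervals were wide, -0.18 to 0.99 for CTSK, -0.66 to 0.62 for CTSS and -0.14 to 1.04 for CTSO. CTSK and CTSS lie side by side on chromosome 1 with 30251 bases between them.

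**Figure D2:**
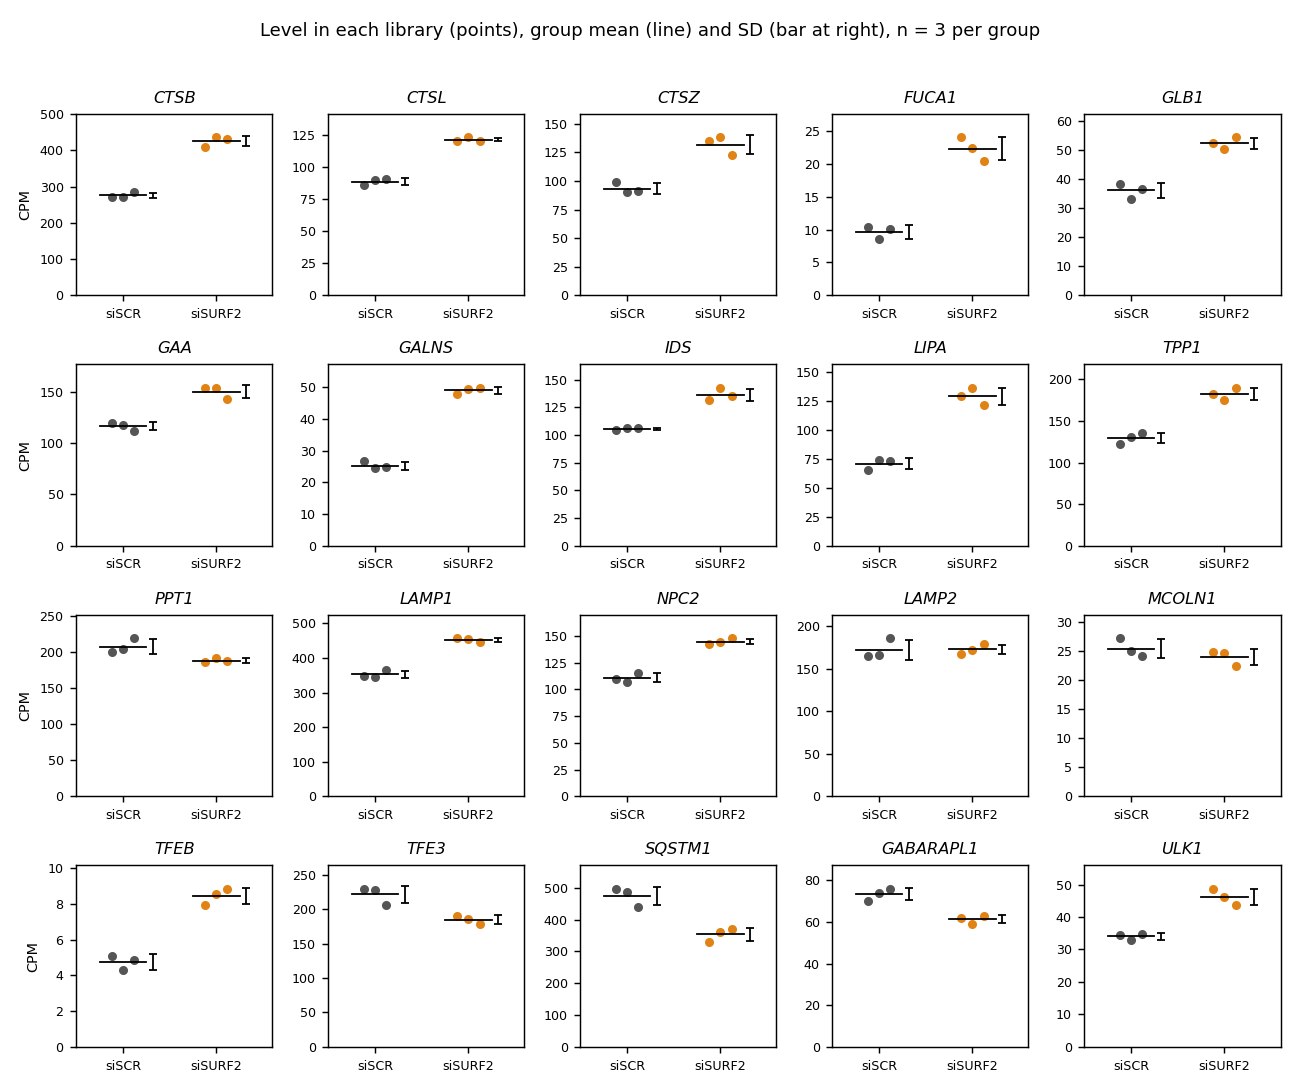
Normalised level in CPM (y axis, from 0) in each of the 3 siSCR and 3 siSURF2 libraries for 20 members, with the group mean as a line and the SD as a bar. The groups are separate in all panels except LAMP2 and MCOLN1, and FUCA1, GALNS, LIPA and TFEB show the largest ratios of siSURF2 to siSCR among these panels.

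Glycosidases remove sugars from glycoproteins, glycolipids and glycosaminoglycans. Of the 11 measured, 9 rose, none fell and 2 missed the threshold, with a median log2 fold change of 0.35. FUCA1 (ENSG00000179163, chromosome 1, 23845077 to 23868294), which removes fucose, was at 10.5, 8.5 and 10.1 CPM in the siSCR libraries and 24.03, 22.4 and 20.5 CPM in the siSURF2 libraries. Every siSURF2 library was higher than every siSCR library, and the mean was 2.3-fold higher (log2 fold change 1.2 ± 0.10, adjusted p = 3.6e-11), the largest log2 fold change among the 47 members. GLB1 (ENSG00000170266, chromosome 3, 32996608 to 33097230), the lysosomal beta-galactosidase whose activity is stained in senescent cells, was at 38.4, 33.3 and 36.9 CPM in the siSCR libraries and 52.5, 50.5 and 54.5 CPM in the siSURF2 libraries. It rose by 0.54 ± 0.07 (adjusted p = 7.0e-08) with no overlap between groups. GAA (ENSG00000171298, chromosome 17, 80101556 to 80119879), which breaks down glycogen and carries a pair of the 10-base elements printed above, was at 119.9, 118 and 112 CPM in the siSCR libraries and 154, 153 and 143 CPM in the siSURF2 libraries. Its log2 fold change was 0.37 ± 0.05 (adjusted p = 8.4e-07).

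MANBA and MAN2B1, which remove beta- and alpha-linked mannose, rose 1.43-fold and 1.28-fold, and NEU1, the sialidase that works in a complex with CTSA and GLB1, rose 1.25-fold. GUSB and HEXA rose least, by 0.16 ± 0.06 and 0.16 ± 0.06. Both calls were lost without siSCR replicate 1 (adjusted p = 0.13 for each), GUSB without siSURF2 replicate 2 (0.079) and HEXA without siSURF2 replicate 3 (0.098). The largest adjusted p over the alternatives other than spike-in scaling was 0.13 for each. Pseudogenes named for GUSB held 3649 counts over all libraries against 5933 for GUSB itself, so its level is uncertain. IDUA, which removes iduronic acid from glycosaminoglycans, was at 0.714, 0.856 and 0.462 CPM in the siSCR libraries and 1.54, 0.929 and 1.3 CPM in the siSURF2 libraries. It was called higher (log2 fold change 0.89 ± 0.35, adjusted p = 0.031) on 109 counts over all libraries, and the call was lost under 6 alternatives besides spike-in scaling, with adjusted p between 0.017 and 0.16. Of IDUA's exon bases 13.35% are shared with other genes, chiefly SLC26A1 on the opposite strand, which had 132 counts against 109. GLA and NAGLU did not pass the threshold (95% confidence intervals of the log2 fold change -0.05 to 0.21 and -0.11 to 0.23).

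Sulfatases remove sulfate from glycosaminoglycans and sulfolipids. Of 5 measured, 3 rose, none fell and 2 missed the threshold. GALNS (ENSG00000141012, chromosome 16, 88813734 to 88856970), which acts on keratan and chondroitin sulfate, was at 26.7, 24.4 and 24.7 CPM in the siSCR libraries and 47.8, 49.6 and 49.8 CPM in the siSURF2 libraries. The mean was 1.94-fold higher and the siSURF2 libraries lay close together, with a log2 fold change of 0.96 ± 0.07 (adjusted p = 1.0e-12). IDS, the iduronate sulfatase on chromosome X, was at 104, 106 and 106 CPM in the siSCR libraries and 132, 142 and 135 CPM in the siSURF2 libraries, and rose by 0.37 ± 0.05 (adjusted p = 5.2e-07). SGSH, a sulfatase of heparan sulfate, was at 14.997, 14.8 and 12.3 CPM in the siSCR libraries and 16.1, 16.8 and 18.04 CPM in the siSURF2 libraries. It rose by 0.28 ± 0.10 (adjusted p = 0.017), a call lost without siSCR replicate 3 (0.14) or siSURF2 replicate 3 (0.078), within a range of 0.0065 to 0.14 over the alternatives other than spike-in scaling. SGSH lies 86837 bases from GAA on chromosome 17. ARSA and ARSB, which act on sulfatide and on dermatan sulfate, did not pass the threshold (95% confidence intervals -0.16 to 0.22 and -0.07 to 0.25).

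Among the 6 hydrolases of lipids and peptides and their activators, 4 rose, 1 fell and 1 missed the threshold. LIPA (ENSG00000107798, chromosome 10, 89213569 to 89414557), the acid lipase that frees cholesterol and fatty acids from lipoprotein lipids, was at 65.6, 73.6 and 73.2 CPM in the siSCR libraries and 129, 136 and 121 CPM in the siSURF2 libraries. The gap between the groups was larger than the spread within either, and the mean was 1.82-fold higher (log2 fold change 0.86 ± 0.06, adjusted p = 5.4e-13). TPP1, a tripeptidyl peptidase, was at 123, 131 and 136 CPM in the siSCR libraries and 182, 175 and 189.8 CPM in the siSURF2 libraries, and rose by 0.49 ± 0.05 (adjusted p = 6.2e-09). ASAH1, the acid ceramidase, was at 91.7, 91.3 and 95.7 CPM in the siSCR libraries and 113, 114 and 119 CPM in the siSURF2 libraries, and rose by 0.32 ± 0.05 (adjusted p = 8.5e-06). SMPD1, the acid sphingomyelinase that makes the ceramide on which ASAH1 acts, rose 1.33-fold.

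PPT1, which removes palmitate from proteins, was at 199.8, 204 and 219 CPM in the siSCR libraries and 186, 192 and 187 CPM in the siSURF2 libraries. All siSURF2 libraries were below all siSCR libraries, but the fall was small, with a log2 fold change of -0.14 ± 0.05 (adjusted p = 0.018). The call was lost with upper-quartile factors (0.087), without a filter (0.074), without siSCR replicate 3 (0.052) and without siSURF2 replicate 1 (0.11), in a range of 0.0064 to 0.11 over the alternatives other than spike-in scaling. Of its exon bases, 23.4% are shared with other annotated genes, the largest overlap being with CAP1 on the opposite strand, which had 52367 counts against 22290 for PPT1, and whether counting used strand was not given in the sources used here. PSAP, the precursor of the saposins that present lipids to these enzymes, was the most abundant member per length and did not pass the threshold (713, 731 and 765 CPM in the siSCR libraries and 779, 793 and 765 CPM in the siSURF2 libraries, 95% confidence interval of the log2 fold change -0.02 to 0.18).

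Of the 6 membrane and cholesterol-handling proteins, 4 rose, none fell and 2 were not called, and the highest log2 fold change was 0.38 (NPC2). LAMP1 (ENSG00000185896, chromosome 13, 113297241 to 113323672), a major glycoprotein of the lysosomal membrane whose window holds 2 TCACGTGA elements, was at 348, 345 and 364 CPM in the siSCR libraries and 456, 455 and 446 CPM in the siSURF2 libraries. It rose by 0.36 ± 0.05 (adjusted p = 2.4e-07). LAMP2, its relative that also serves chaperone-mediated autophagy, was at 165, 166 and 185 CPM in the siSCR libraries and 167, 171 and 179 CPM in the siSURF2 libraries. The LAMP2 groups overlapped, and the 95% confidence interval of the log2 fold change was -0.10 to 0.11. The intervals of LAMP1 (0.26 to 0.46) and LAMP2 do not overlap, although the difference between the genes itself was not tested.

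NPC2, the soluble protein that hands cholesterol to NPC1, was at 109.7, 107 and 116 CPM in the siSCR libraries and 143, 144 and 148 CPM in the siSURF2 libraries, and rose by 0.38 ± 0.05 (adjusted p = 3.0e-07). NPC1, the membrane protein that exports this cholesterol, rose 1.14-fold (adjusted p = 0.0031). CD63, a tetraspanin of late endosomes and lysosomes, was at 435, 399.5 and 392 CPM in the siSCR libraries and 482, 487 and 491 CPM in the siSURF2 libraries, and rose by 0.25 ± 0.05 (adjusted p = 1.0e-04). MCOLN1, the calcium channel of the lysosomal membrane, was at 27.1, 24.98 and 24.1 CPM in the siSCR libraries and 24.8, 24.7 and 22.4 CPM in the siSURF2 libraries. Its groups overlapped (95% confidence interval -0.24 to 0.07), and its window holds the 10-base element at position -16.

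The transcription factors TFEB and TFE3 moved in opposite directions. TFEB (ENSG00000112561, chromosome 6, 41683978 to 41736259) was at 5.12, 4.28 and 4.88 CPM in the siSCR libraries and 7.97, 8.57 and 8.85 CPM in the siSURF2 libraries. The mean was 1.78-fold higher in siSURF2 (log2 fold change 0.83 ± 0.13, adjusted p = 6.3e-06), with every siSURF2 library above every siSCR library. TFE3 (ENSG00000068323, chromosome X, 49028726 to 49043486) was at 229, 228 and 207 CPM in the siSCR libraries and 190.2, 186 and 179 CPM in the siSURF2 libraries. Its log2 fold change was -0.26 ± 0.05 (adjusted p = 1.1e-04), and here every siSURF2 library was below every siSCR library. Per length of transcript, TFE3 was far more abundant than TFEB, at 183 ± 7.43 TPM (counts divided by exon length and scaled to a common total per library) against 2.99 ± 0.278 TPM in siSCR, so the summed level of the pair followed TFE3 and was 0.845 of the siSCR mean in siSURF2.

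Of the other family members, MITF was at 21.3, 18.99 and 18.7 CPM in the siSCR libraries and 48.8, 51.3 and 44.6 CPM in the siSURF2 libraries and was 2.45-fold higher (log2 fold change 1.3 ± 0.07, adjusted p = 2.3e-14). TFEC, named after its values were seen to complete the family, was at 3.99, 5.51 and 4.52 CPM in the siSCR libraries and 6.6, 6.09 and 8.35 CPM in the siSURF2 libraries and rose by 0.58 ± 0.16 (adjusted p = 0.0025). TFE3 was thus the only 1 of the 4 family members whose mRNA fell. Per length, MITF and TFEC were at 9.71 ± 0.588 TPM and 1.92 ± 0.317 TPM in siSCR, both well below TFE3. The list of MiT/TFE factors and of mTORC1 regulators at the lysosome as a whole was mixed, with 7 of 22 higher and 6 lower (31.8% and 27.3%), near the shares of all genes. RHEB, the GTPase that activates mTORC1, fell by 0.37 ± 0.05 and RRAGC, a GTPase that brings mTORC1 to the lysosome, by 0.42 ± 0.06, while TSC2, which switches RHEB off, rose by 0.41 ± 0.06.

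**Figure D3:**
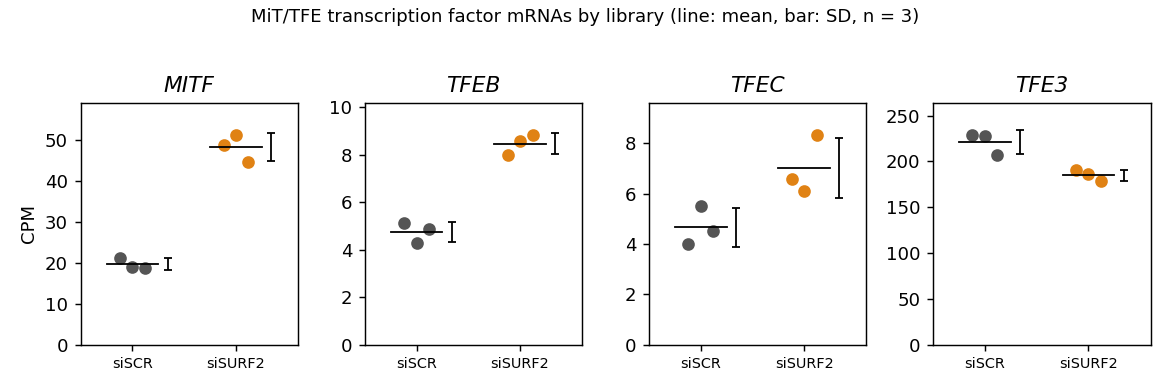
Level in CPM (y axis, from 0, a separate scale in each panel) of the 4 MiT/TFE transcription factor mRNAs in each siSCR and siSURF2 library, with group means as lines and SDs as bars (n = 3). MITF, TFEB and TFEC were higher in every siSURF2 library than in any siSCR library, and TFE3 was lower in every one.

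Autophagy genes did not share a direction: 2 of 6 rose, 2 fell and 2 missed the threshold. Both shares, 33.3% of 6 genes, are near those over all genes tested (25.8% higher and 26.2% lower). SQSTM1 (ENSG00000161011, chromosome 5, 179806398 to 179838078), which encodes p62, the receptor that links ubiquitinated cargo to autophagosomes, was at 496, 486 and 441 CPM in the siSCR libraries and 330.0, 362 and 369 CPM in the siSURF2 libraries. It had the largest fall among the 47 members, 0.42 ± 0.05 on the log2 scale (adjusted p = 1.5e-07), and the groups did not overlap. In SQSTM1, 22.04% of exon bases are shared with other genes. The largest overlap is with MRNIP on the opposite strand, which had 1729 counts against 46421. GABARAPL1, a member of the family of ubiquitin-like proteins joined to the autophagosome membrane, was at 70.3, 73.97 and 75.9 CPM in the siSCR libraries and 62.03, 59.2 and 62.9 CPM in the siSURF2 libraries, and fell by 0.26 ± 0.06 (adjusted p = 3.3e-04). Its relatives GABARAPL2 and MAP1LC3B overlapped between the groups, with 95% confidence intervals of -0.11 to 0.12 and -0.13 to 0.09 for the log2 fold change.

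The 2 autophagy members that rose were ULK1 and WIPI1. ULK1, the kinase that starts autophagosome formation, was at 34.4, 32.9 and 34.8 CPM in the siSCR libraries and 48.6, 46.1 and 43.6 CPM in the siSURF2 libraries, and rose by 0.44 ± 0.06 (adjusted p = 1.8e-06). WIPI1, which binds the phosphoinositide of the forming membrane, was at 19.4, 20.005 and 18.1 CPM in the siSCR libraries and 26.1, 22.4 and 24.8 CPM in the siSURF2 libraries, and rose by 0.35 ± 0.08 (adjusted p = 6.5e-04). Of WIPI1's exon bases 28.1% are shared with other genes, chiefly ARSG on the opposite strand, which had 264 counts against 2457.

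Levels were also summed per length of transcript within each role group. The cathepsins together were at 636 ± 9.85 TPM in siSCR and 879 ± 44.2 TPM in siSURF2 (mean ± SD, n = 3 each), a ratio of 1.38. The glycosidases went from 360 ± 7.12 to 449 ± 18.0 TPM (ratio 1.25), the sulfatases from 84.8 ± 1.48 to 108 ± 5.54 TPM (1.28), and the membrane and cholesterol-handling proteins from 1072 ± 29.4 to 1277 ± 47.2 TPM (1.19). The lipid and peptide hydrolases, of which PSAP makes up most, were at 1121 ± 62.2 and 1230.1 ± 61.3 TPM (1.10), a gap of the same order as the spread between libraries. In summed CPM, which is scaled by TMM, they were at 1258 ± 47.9 in siSCR and 1421 ± 16.1 in siSURF2 (1.13). The autophagy genes together were lower, at 460.1 ± 3.88 TPM in siSCR and 402 ± 19.2 TPM in siSURF2 (0.873). SQSTM1, the most abundant of them, went from 219.9 ± 9.9 TPM in siSCR to 163 ± 13.2 TPM in siSURF2. Of the 6 genes, 2 rose and 2 fell. These sums follow their most abundant genes and were not tested. siSURF2 replicate 2, with its low mitochondrial share, had the highest TPM sum of its group in each of these 6 role groups and for the transcription factors. In summed CPM it was not the highest for the membrane and cholesterol-handling proteins, the autophagy genes or the transcription factors. Without siSURF2 replicate 2 the TPM ratios were 1.34, 1.22, 1.24, 1.17, 1.07 and 0.854 in the same order.

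**Figure D4:**
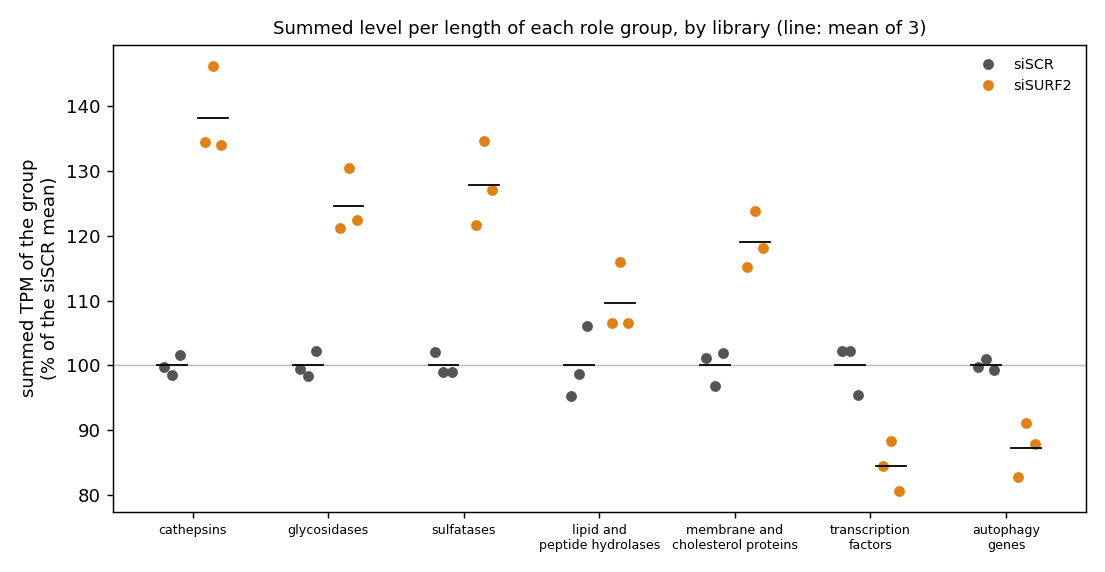
Summed TPM of each role group (x axis) in each library, as a percentage of the siSCR mean of that group (y axis, not starting at 0); lines are means of 3 libraries. Cathepsins, glycosidases, sulfatases and membrane proteins lie above 100% in all siSURF2 libraries with ratios of 1.38, 1.25, 1.28 and 1.19, and the transcription factors and autophagy genes lie below it.

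Levels between genes were compared per length only, with lengths from all annotated exons of a gene, which understates genes with long rarely used exons. In siSCR the most abundant members were PSAP (808 ± 43.3 TPM) and CD63 (551 ± 24.1 TPM), whose ranges did not overlap with each other or with the next. SQSTM1 and LAMP1 followed at 219.9 ± 9.9 TPM and 218 ± 10.3 TPM, with overlapping ranges, then TFE3 and CTSZ (163 ± 7.18 TPM). PPT1, NPC2, CTSL and CTSB formed a run from 145 ± 9.68 TPM down to 132 ± 6.21 TPM in which each neighbour overlapped the next. At the bottom were CTSK (2.21 ± 0.467 TPM), CTSO (1.32 ± 0.309 TPM), CTSS (0.930 ± 0.200 TPM) and IDUA (0.599 ± 0.169 TPM). Of the 46 pairs of neighbours in this order, 26 had overlapping ranges over the 3 siSCR libraries.

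Other genes of the same pathways, from lists of 155 genes in all, were read from the same test to set the members in context. Of 152 that passed the filter on low counts, 76 rose and 23 fell (15.1%), against 25.8% and 26.2% of all genes tested, with a median log2 fold change of 0.18. Lysosomal hydrolases outside the members, with some of their activators, had 17 of 26 higher and 1 lower (median 0.32). SUMF1, which activates sulfatases in the endoplasmic reticulum and is not itself a hydrolase, rose from 6.35 ± 0.464 to 14.98 ± 1.05 CPM (2.36-fold), and SIAE, an esterase of sialic acids, rose 2.09-fold. The 1 that fell was CTSV, a cathepsin closely related to CTSL, from 21.8 ± 2.41 to 15.4 ± 1.54 CPM (a log2 fold change of -0.51 ± 0.09, adjusted p = 4.4e-05). Lysosomal membrane proteins outside the members had 16 of 23 higher and none lower (median 0.34), led by ABCB9, a peptide transporter (1.97-fold), and SLC17A5, the sialic acid exporter (1.58-fold).

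Genes that deliver enzymes to the lysosome had 9 of 15 higher and 1 lower (60.0% and 6.7%). Over all genes tested, the shares were 25.8% and 26.2%. IGF2R, the large mannose phosphate receptor, rose from 230.2 ± 13.3 to 315 ± 12.7 CPM, and GNPTG, a subunit of the enzyme that makes the mannose phosphate tag, rose 1.49-fold, while GGA2, a sorting adaptor, fell by 0.29 ± 0.06 on the log2 scale. Subunits of the V-ATPase, the proton pump that acidifies the lysosome, had 9 of 17 higher and 4 lower (52.9% and 23.5%). Their share lower was near that of all genes. ATP6V0D1 and ATP6V1A rose 1.55-fold and 1.4-fold, and ATP6V1B2 and ATP6V1C1 fell by 0.36 ± 0.05 and 0.26 ± 0.05.

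The autophagy machinery outside the members was mixed as well, with 11 of 33 higher and 8 lower (33.3% and 24.2%), near the shares of all genes. TMEM41B, a lipid scramblase needed for autophagosomes to form, fell from 47.4 ± 2.9 to 20.8 ± 3.06 CPM (a log2 fold change of -1.19 ± 0.08, adjusted p = 9.1e-12). ATG3, an enzyme that joins LC3-type proteins to lipid, fell by 0.50 ± 0.06. ATG2A, which transfers lipid to the growing membrane, rose 1.55-fold, and GABARAP, the relative of GABARAPL1 and GABARAPL2, rose 1.33-fold. Autophagy receptors had 4 of 11 higher and 2 lower (36.4% and 18.2%), against 25.8% and 26.2% of all genes tested. Whether these shares differ was not tested. BNIP3L and PHB2, receptors for mitochondria, rose by 0.38 ± 0.06 and 0.15 ± 0.05, and BNIP3 and NCOA4, the receptor for ferritin, fell by 0.17 ± 0.06 and 0.12 ± 0.05. Whether the lysosomal and the autophagy lists differ from each other was not tested.

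**Figure D5:**
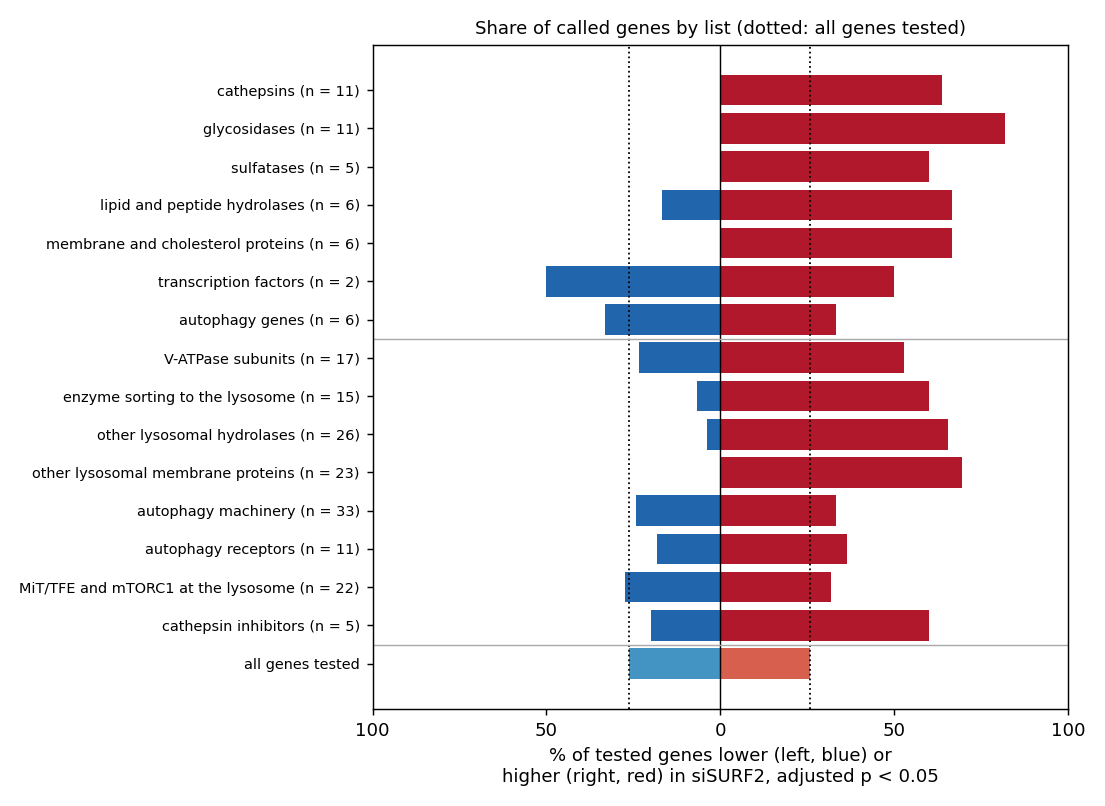
Percentage of tested genes called lower (left, blue) or higher (right, red) in siSURF2 at an adjusted p under 0.05 (x axis) for the 7 role groups of members, the 8 other pathway lists and all genes tested (y axis, n is the number tested). Dotted lines mark 26.2% lower and 25.8% higher over all genes; glycosidases have the highest share of higher calls among the lists shown (81.8%), and the lists of autophagy machinery and of MiT/TFE and mTORC1 genes lie near the dotted lines.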

How the data were processed

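The deposited table holds the authors' raw read counts for 6 polyA libraries. GRCh38, STAR 2.5.2b and fastp 0.23.1 are named per the submitters' processing notes. How reads were counted, with which annotation and strand setting, was not given in the sources used here. Columns were matched to samples by name. A names table gave symbols for 56948 gene IDs and GENCODE release 29 (GRCh38) for 499 more, and 604 stayed unnamed. GENCODE also gave coordinates and exon lengths. The 92 ERCC rows stayed out of library sizes and tests.

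From the counts, genes were filtered with filterByExpr (minimum count 10, minimum total 15), scaled by TMM and tested with the quasi-likelihood F-test of edgeR 4.0.16 in R 4.3.3 (robust, group as the 1 term), with Benjamini-Hochberg adjustment over 17561 genes. Standard errors and intervals come from coefficients without a prior count. Printed log2 fold changes include edgeR's prior count. TPM values used counts over exon length.

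Members and lists were chosen with earlier results of these data known. No list was tested. Values in every library are given for up to 3 members per direction in each role group with the smallest adjusted p, and for TFEB, TFE3, MCOLN1, ULK1 and SQSTM1. Library values of CTSF, IDUA, SGSH, LAMP2, PSAP and TFEC were added after their values were seen. Of each pathway list, up to 2 genes per direction are named. Alternatives were RLE, upper-quartile, no and spike-in scaling, other filters, DESeq2 1.42.0, limma-voom (limma 3.58.1), blocking on replicate number, a non-robust prior, thinning to the smallest library, and leaving out each library. Data were also simulated for siSURF2 against siSCR, with 17260 genes tested and 8 false calls. Of genes changed 1.3-, 1.5-, 2- and 4-fold in them, 51%, 70%, 87.5% and 100% were recovered. Recovery at the share of genes called in the real comparison, 52.0%, was not tested.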

Additional observations from a re-analysis of the deposited data

How the results depend on the processing

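The largest effect came from ERCC spike-in totals as library sizes. With them 802 genes were higher and 825 lower (against 4535 and 4596), and 3 members were higher and 0 lower (against 30 and 4). By role group, the higher calls were then 0 cathepsins, 1 glycosidase, 1 sulfatase, 1 lipid or peptide hydrolase, 0 membrane proteins, 0 transcription factors and 0 autophagy genes, and the lower calls were 0 throughout. The median log2 fold change was 0.31 over the members and -0.035 over all genes, so the values moved little. The cause of the lost calls was not tested. Over all other settings, 24 of the 30 higher members and 3 of the 4 lower ones kept their call, and CTSF, CTSH, GUSB, HEXA, IDUA, SGSH and PPT1 did not. The lower count of lipid and peptide hydrolases, which is PPT1, was 0 with upper-quartile factors and 0 without a filter, and 0 to 1 on leaving out 1 library. Leaving out 1 library gave 25 to 29 members higher and 3 to 4 lower. Leaving out the 17 members with over 5% of exon bases shared with other genes, a choice made after seeing the data, left 30 members. Of these, 17 were higher and 1, TFE3, was lower, smaller counts by construction. The lower members SQSTM1, PPT1 and GABARAPL1 were among those left out.

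Signs turned only for values near 0 that were not called. The autophagy median (-0.008) was 0.038 with upper-quartile factors, 0.018 with no factors, 0.011 without a filter and 0.007 after thinning, and -0.031 to 0.024 on leaving out 1 library. The MiT/TFE and mTORC1 median (0.001) was -0.038 with spike-in totals and -0.032 to 0.033 on leaving out 1 library. With spike-in totals LAMP2 was at -0.049 and GABARAPL2 at -0.029. With upper-quartile factors MAP1LC3B was at 0.025 and CTSS at 0.024, with no factors at 0.005 and 0.004, and CTSS was at 0.015 after thinning. On leaving out 1 library, LAMP2 ran from -0.035 to 0.053, GABARAPL2 from -0.035 to 0.04, MAP1LC3B from -0.061 to 0.02, ARSA from -0.028 to 0.086 and CTSS from -0.207 to 0.185.

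Pairing of the samples by replicate number was not seen: same-numbered libraries had correlations of deviations of 0.005, -0.12 and -0.028 over 13677 genes. Those of unlike-numbered libraries ran from -0.123 to 0.161. The labels do not state whether replicates were paired, and these few correlations cannot exclude it. With the replicate block, 4478 genes were higher and 4550 lower, and 30 members were higher and 4 lower. CTSK, CTSO, CTSS and IDUA rest on 9 to 36 counts a library, which limits their precision.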

Other observations

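Inhibitors of cathepsins, a list of 6 genes, were measured in the same way. Of 5 tested, 3 rose and 1 fell, where 25.8% of all genes tested were called higher and 26.2% lower. CST3, the secreted cystatin C, was at 32.4, 30.6 and 31.2 CPM in the siSCR libraries and 51.3, 51.6 and 51.7 CPM in the siSURF2 libraries, and was 1.64-fold higher (log2 fold change 0.71 ± 0.06, edgeR adjusted p = 1.2e-10). SERPINB6, an intracellular serpin, rose 1.37-fold. CST6, cystatin M, was at 2.86, 3.58 and 2.82 CPM in the siSCR libraries and 0.385, 0.258 and 0.450 CPM in the siSURF2 libraries and fell, with a log2 fold change of -3.06 ± 0.31 (adjusted p = 1.8e-09) and all siSURF2 libraries under 1 CPM.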
